A study of Arabidopsis thaliana with 9 samples.

Results

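The comparison set seedlings that had spent 8 d on FPX against seedlings that had spent 2 d on it. It used the 6 arrays of the 9 in the series that came from treated seedlings, 3 for each time, chosen by the time on FPX in their labels. FPX is a compound that the series title describes as an inducer of callus and of shoot regeneration, and the stated aim was to find the genes it affects. All 6 arrays came from wild-type Arabidopsis thaliana, grown on MS medium and moved at 4 d of age to MS medium with 45 µM FPX, and RNA was taken from whole seedlings, so roots, hypocotyl, cotyledons and new growth were measured together. The remaining 3 arrays (0 d, 4 d old, without FPX) were made from raw data shared with another series. They entered only the estimate of the spread here, and their values are given beside those of named genes as a description. Because both sides were treated, the comparison does not rest on the 0 d arrays, but seedlings at 8 d were also older than those at 2 d, and time on FPX and age cannot be told apart. The labels do not say that the arrays of a group came from separate plates or batches of seedlings, so the p-values cover only the variation among these arrays, part of which may be technical.

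Callus is a mass of dividing cells that plant tissue forms under suitable hormones or chemicals, and new shoots can grow out of it. Chloroplasts keep a small genome of their own, and the photosynthetic complexes are built from subunits encoded there together with subunits encoded in the nucleus and imported. Plastid genes are read by a plastid-encoded polymerase, which serves mostly photosynthesis genes, and by a nuclear-encoded one, which reads among others the operon of the polymerase subunits. Green cotyledons and leaves carry the bulk of photosynthesis transcripts in a seedling, while roots hold little of them.

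The array table held 11249 probe sets, of which 11228 were not controls and were tested. In a one-way comparison of log2 signals, 11202 of the 11228 probe sets differed between the 3 groups at a bound of 0.04. The table is thus a selected one, so no count below is a share of the genome. That comparison covers the arrays tested here, so high shares of calls and of groups without overlap were favoured beforehand. The adjusted p-values do not allow for this selection. Arrays correlated over probe sets at r = 0.989 to 0.991 within the 2 d group and at 0.987 to 0.990 within the 8 d group, and no array stood apart. On these 6 arrays the 75th percentile of the signal was 1059 to 1103. The hybridization controls were lower at 8 d than at 2 d (log2 difference −0.146, 7 probe sets), and the ratio of the 3' to the 5' probe set of GAPDH was 0.964, 1.08 and 0.906 at 2 d and 0.825, 0.798 and 0.930 at 8 d. The ratio for the ubiquitin control was 1.12, 1.01 and 1.14 at 2 d and 1.06, 1.06 and 1.19 at 8 d. The groups overlapped for GAPDH as well as for ubiquitin. The part of these control differences in the results was not tested, other than by the scaling on the hybridization controls.

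Between 2 d and 8 d, more probe sets rose than fell, but the larger changes were mostly falls. At an adjusted p under 0.05 in limma, 8534 of 11228 probe sets changed (76.0%). Of these, 4928 rose (43.9% of those tested) and 3606 fell (32.1%). Among changes of at least 2-fold the order was the other way round, with 734 rises (6.54%) and 1255 falls (11.2%). At 4-fold or more, 107 rose and 127 fell, and at 8-fold or more 35 rose and 11 fell, so the extreme changes were again mostly rises. This order at 2-fold depended on the scaling. With hybridization controls set equal, 1070 rose and 1007 fell at least 2-fold (51.5% rises against 36.9% in the values as deposited). With the array medians set equal, the numbers were 618 and 1430. Over all probe sets the median change was 0.15 on the log2 scale, and it was 0.29 under the scaling on hybridization controls, so each change below is to be read against a shift of that size. The arrays of both groups did not overlap for 8948 probe sets (79.7%).

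The probe sets that fell at least 2-fold were bright before they fell, and those that rose were dim before they rose. The falling ones had a median signal of 931 at 2 d and of 324 at 8 d, and the rising ones of 253 at 2 d and of 796 at 8 d, beside 506 and 533 for all probe sets. As a share of the summed signal of all tested probe sets, the falling ones made up 18.7 to 19.3% on the 2 d arrays and 6.92 to 7.38% on the 8 d arrays. The rising ones made up 2.59 to 2.64% of it on the 2 d arrays and 8.34 to 8.52% on those of 8 d. These values describe sets that were chosen by the change itself, and no test was made on them. RNA was taken from whole seedlings, so a lower signal from fewer cells of a type and one from less RNA per cell cannot be told apart.

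**Figure D1:**
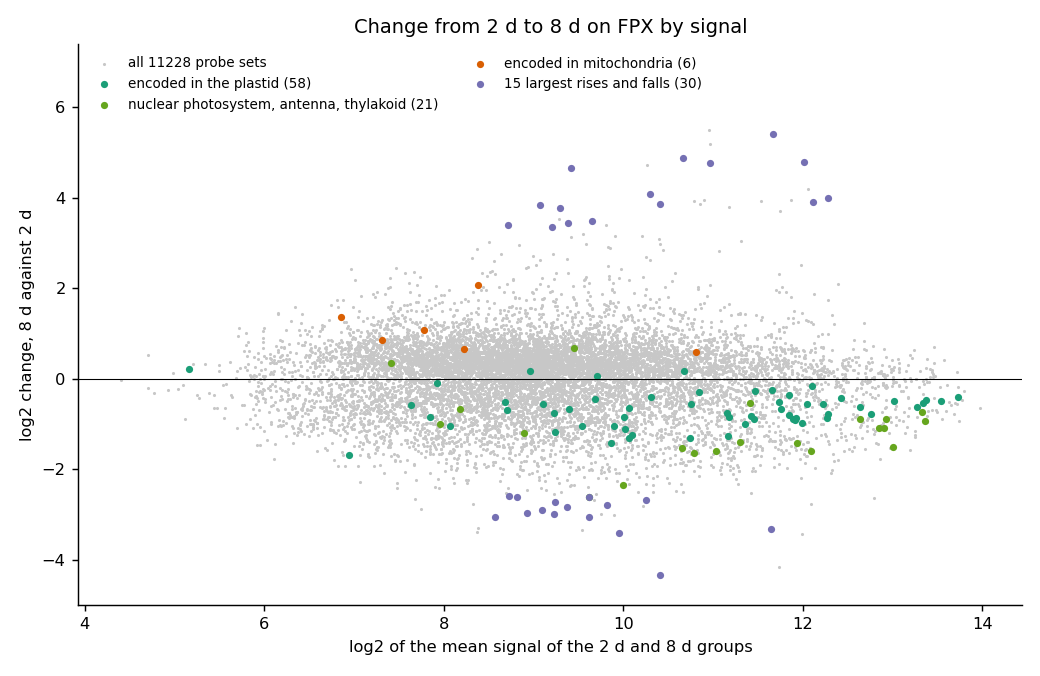
Log2 change of 8 d against 2 d (vertical axis) of each of the 11228 tested probe sets against the log2 of the mean signal of both groups (horizontal axis). Coloured points mark genes encoded in the plastid, nuclear photosynthesis genes, transcripts encoded in mitochondria and the 30 genes with the largest changes that met the rule for naming. The plastid genes that fell lie over most of the signal range, and the 6 mitochondrial transcripts lie above 0.

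Most of the tested probe sets with 1 gene carried only a locus code. Of 5072 such probe sets, 2375 rose (46.8%) and 1462 fell (28.8%), with 338 rises (6.66%) and 509 falls (10.0%) of at least 2-fold. Of the 909 with a gene symbol, 345 rose (38.0%) and 338 fell (37.2%). Another 5025 probe sets were not listed in the annotation and stayed unnamed here, of which 2090 rose (41.6%) and 1752 fell (34.9%), 323 (6.43%) and 628 (12.5%) of them at least 2-fold, and 222 belonged to several genes. Of the 15 largest rises and the 15 largest falls that met the rule for naming, 14 on each side had a locus code alone, and no role is given here for these.

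Over all probe sets the log2 change ran from −4.35 to 5.50. Among the genes that met the rule for naming, the largest rise was that of AT1G52050. Its signal was 149.7, 124 and 131 on the 2 d arrays and 6341, 6729.5 and 6106 on the 8 d arrays, with a mean of 846 at 0 d. The gene was therefore dim at 2 d and among the bright ones at 8 d, and its log2 change was 5.41 ± 0.09 (SE, limma adjusted p = 1.43e-11), or 42.6-fold. The locus codes AT1G52060 and AT1G52070, which follow AT1G52050 in the order of genes, changed in the same way. AT1G52060 gave 166, 104 and 117 at 2 d and 3646, 3981 and 4011 at 8 d, and AT1G52070 gave 776, 334 and 605 at 2 d and 8016, 8243 and 8600.4 at 8 d. In both genes each 8 d array was above each 2 d array, with log2 changes of 4.77 ± 0.13 (SE) for the first and a 14.9-fold change for the second. Their mean signals at 0 d, 1451 and 2319, lay between those of the treated groups.

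AT1G50060 was among the brightest of the 15 rises at 8 d. It gave 260.4, 345 and 226 at 2 d and 6689.7, 8346 and 8932 at 8 d, a log2 change of 4.78 ± 0.15 (SE, limma adjusted p = 1.8e-09), or 27.5-fold. AT5G54370 gave 668, 507 and 564 at 2 d and stood at 9025, 9376 and 9727 at 8 d, a change of 3.99. AT1G19530 gave 67.3, 135 and 82.3 at 2 d and 2611, 3842 and 3027 at 8 d, so its arrays varied more within each time than those of AT1G52050, though the groups lay far apart (log2 change 4.87 ± 0.20, SE). AT4G33560 was near the bottom of the signal range at 2 d, with 49.3, 43.3 and 23.3, and gave 1240.4, 1467 and 1270.3 at 8 d. Its height above background at 2 d is unknown, so the size of its change is less certain. AT4G27400 was even across arrays, at 118, 125 and 132 and then 2413, 2361 and 2382 (log2 change 4.09). The other locus codes among the largest rises were AT5G60630 (3.85), AT4G26880 (3.84), AT5G14020 (3.49), AT5G24580 (3.44), AT5G66985 (3.40) and AT1G06980 (3.35). These 6 had means of 56.9 to 165 at 2 d and of 782 to 2559 at 8 d.

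The only gene with a symbol among these 15 rises was sks15 (AT4G37160), a relative of SKU5, which encodes a copper oxidase-like protein of the cell wall and membrane known from directional root growth. Its signal was 84.9, 50.5 and 83.7 at 2 d and 1331, 987 and 1224 at 8 d, against a mean of 391 at 0 d. All 3 measured genes of the SKU5 family changed, as did 76.0% of all probe sets, and not in the same direction. sks16 (AT2G23630) gave 91.4, 63.8 and 81.8 at 2 d and 232, 265 and 276 at 8 d and rose by 1.53 on the log2 scale. SKU5 (AT4G12420) itself was bright at 2 d, with 6007, 6362 and 5979, and fell to 3519.6, 3503 and 3545 at 8 d (log2 change −0.79).

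**Figure D2:**
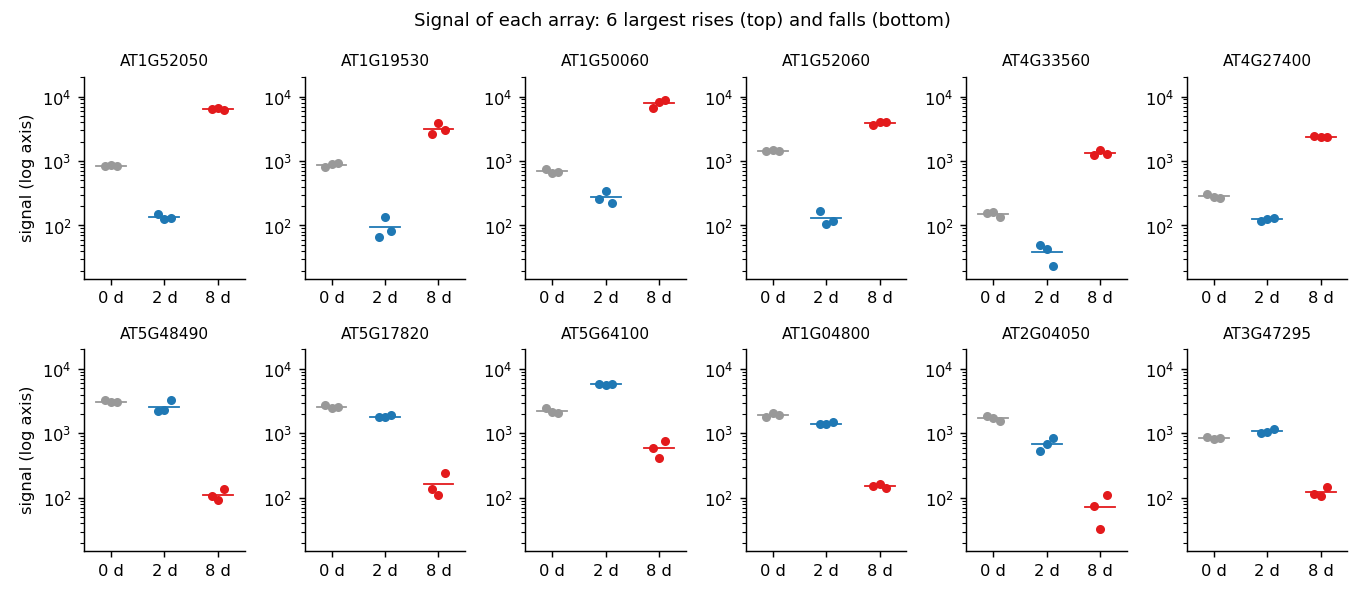
Signal of each array, on a log axis, for the 6 largest rises (top row) and the 6 largest falls (bottom row) among the genes that met the rule for naming. Points are arrays, grey for 0 d, blue for 2 d and red for 8 d, and lines are group means. In each panel the 3 arrays at 8 d lie apart from the 3 at 2 d.

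The largest fall was that of AT5G48490. Its signal was 2232, 2283 and 3306 at 2 d and 108, 92.3 and 136 at 8 d, with a mean of 3115 at 0 d, and the groups lay far apart. The log2 change was −4.35 ± 0.16 (SE, limma adjusted p = 4.64e-09), or 20.3-fold. AT5G17820 gave 1777, 1765 and 1923 at 2 d and 138, 112 and 241 at 8 d, where one array was above the other two (log2 change −3.42 ± 0.20, SE). AT5G64100 stood out among the falls by its brightness at 2 d, with 5877, 5719.5 and 5842, above its 0 d mean of 2221, and it gave 584, 409.7 and 756 at 8 d. AT1G04800 was even within each time, at 1383, 1392 and 1474 and then 155, 166 and 143, and changed by −3.07.

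AT2G04050 had the largest SE of these falls. It gave 525, 691 and 844 at 2 d and 75.2, 32.8 and 109 at 8 d, so the 8 d arrays were uneven, and the groups still did not overlap (log2 change −3.07 ± 0.28, SE, limma adjusted p = 2.2e-06). The other locus codes among the 15 were AT3G47295 (−2.98), AT2G36145 (−2.97), AT5G45950 (−2.90), AT1G33811 (−2.85), AT2G34620 (−2.79), AT5G44680 (−2.72), AT5G16030 (−2.69), AT5G55050 (−2.62) and AT2G37870 (−2.60). Of these, AT5G16030 was the brightest at 2 d, with 2132, 2142 and 2058, and gave 280.0, 432 and 253 at 8 d. The only gene with a symbol among the 15 falls was NdhN, which is described with the photosynthesis genes.

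Genes that lie next to each other were compared in the order of protein-coding genes of the RefSeq table (assembly TAIR10.1), with the probe sets of 5801 genes placed. Of 1387 pairs of direct neighbours in the table, 47 had both members changed at least 2-fold. Both rose in 14 pairs, both fell in 13, and they went opposite ways in 20. Of all placed genes 391 rose (6.74%) and 590 fell (10.2%) at least 2-fold, and nothing is read from the number of pairs. The only run of 3 or more was AT1G52050, AT1G52060 and AT1G52070, and cross-hybridization between similar neighbours was not tested. The pairs named here were picked with their values in view. The glutathione transferase genes GSTU25 and GSTU26 rose together (2.07 and 2.42), as did the glycosyltransferase genes UGT73B4 and UGT73B5 (2.91 and 1.01) and the locus codes AT5G60520 (3.15) and AT5G60530 (3.05). The locus code AT4G33550, next to AT4G33560, fell (−2.47), and the methionine sulfoxide reductase genes MSRB5 and MSRB6 went opposite ways.

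Transcripts encoded in the plastid fell over a wide front. Of 58 measured genes 50 fell, 0 rose and 8 did not pass in limma, with a median log2 change of −0.67 beside 0.15 for all probe sets and beside the 32.1% of all probe sets that fell. At an unadjusted p under 0.05, the count of rises among the 58 was also 0. With 76.0% of all probe sets called, that bound lies close to the adjusted one and is no separate check. The number that fell was 52 with array medians set equal, 46 after quantile normalization and 44 under the scaling on hybridization controls, where 1 gene rose. All 37 measured genes of the photosystems, the cytochrome b6f complex and cytochrome maturation, the ATP synthase and the NDH complex fell (the exceptions under other scalings were psbJ, which did not pass after quantile normalization or with the hybridization controls set equal, and atpB, which did not pass after quantile normalization). Leaving out a single array ended the calls of psbJ (2 d replicate 3 or 8 d replicate 3, limma adjusted p up to 0.128) and ndhE (2 d replicate 1 or 8 d replicates 2 or 3, up to 0.0736).

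In photosystem II, all 12 measured genes fell, with a median of −0.77 (32.1% of all probe sets fell). The largest change was that of psbD, which encodes the D2 protein of the reaction centre. Its signal was 1535, 1305 and 1248 at 2 d and 495, 476 and 514 at 8 d, so the groups were well apart. Its log2 change was −1.43 ± 0.12 (SE, limma adjusted p = 1.27e-06), or 2.69-fold. It was followed by psbC (−1.26) and psbB (−1.10), which encode the inner antenna proteins, by psbZ (−0.89), and by psbE and psbK (−0.77 each). In photosystem I all 7 fell, with psaA (−0.997), which encodes a reaction centre protein, and the small subunit genes psaJ (−0.92) and psaI (−0.85) ahead, followed by the assembly factor gene ycf4 (−0.82), psaC (−0.56) and psaB (−0.48).

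The ATP synthase genes fell in 6 of 6 cases (32.1% of all probe sets fell). The log2 changes were −1.32, −1.30 and −1.24 for atpH, atpA and atpF and −0.85 for atpI, while atpE and atpB fell less (−0.49 and −0.41). The gene atpA, for the alpha subunit, gave 2717, 2375 and 2272 at 2 d and 972, 981 and 992 at 8 d, against 2756 at 0 d. Among genes of the NDH complex, which carries electrons around photosystem I, all 7 fell. The dimmest of them, ndhG, changed most, from 226, 188 and 176 at 2 d to 44.9, 47.8 and 56.2 at 8 d (log2 change −1.69), and ndhH (−1.18), ndhJ (−1.04), ndhA (−0.87), ndhE (−0.69) and ndhD (−0.56) followed. The cytochrome b6f genes petL (−1.05), petG (−1.05), petA (−0.98) and petB (−0.50) and the cytochrome maturation gene ccsA (−0.80) fell. The gene rbcL, for the large subunit of Rubisco, gave 1304, 1332 and 1352 at 2 d and 693, 719.6 and 775 at 8 d, with 2335 at 0 d.

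Genes for the plastid's own transcription and translation changed less, and only part of them passed. Of 17 measured, 9 fell and 8 did not pass, with a median of −0.35 (32.1% of all probe sets fell). The falls were led by the ribosomal protein genes rpl33 (−0.87), rps2 (−0.76), rps4 (−0.68), rps18 (−0.64), rps16 (−0.59) and rpl20 (−0.53), the last of which did not pass when any single array other than 2 d replicate 2 was left out (limma adjusted p up to 0.116). The number of falls was 5 under the scaling on hybridization controls, where rpl14 passed as a rise (0.32), and 11 with array medians set equal. The genes of the polymerase subunits did not pass, with values of 0.20 for rpoB, 0.05 for rpoC1 and −0.10 for rpoC2. The gene rpoB was near the bottom of the signal range on every treated array, at 17.4, 43 and 37 at 2 d and 33.2, 50.7 and 32.7 at 8 d, so the groups overlapped and a change would be hard to see. The difference between these genes and the photosynthesis genes was not tested.

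**Figure D3:**
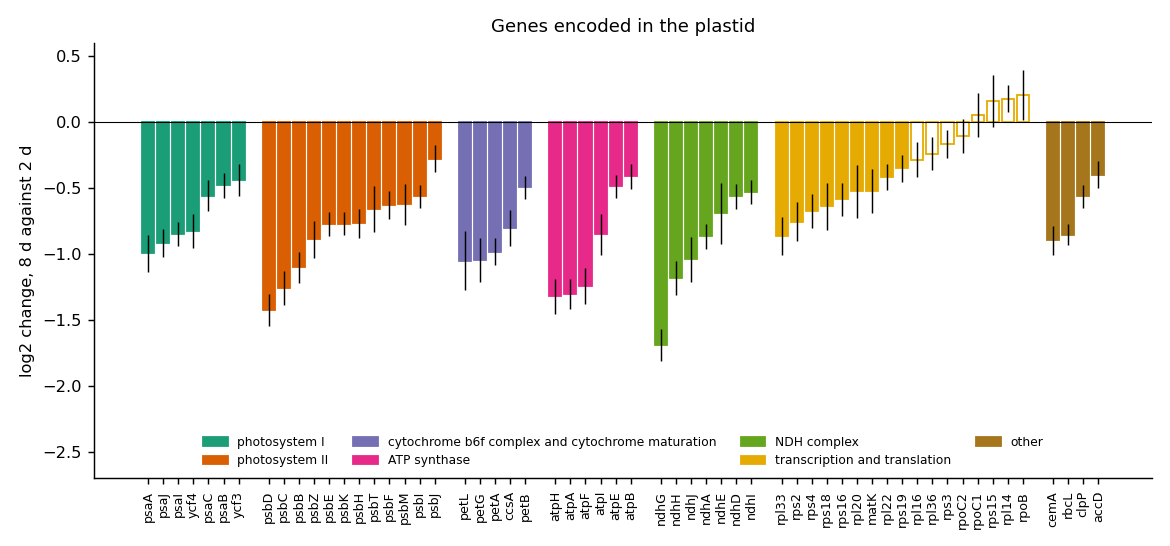
Log2 change of 8 d against 2 d for the 58 genes encoded in the plastid, grouped by function. Bars are the change of 1 probe set and lines its SE, and open bars did not pass at an adjusted p of 0.05 in limma. All bars of the photosystems, cytochrome, ATP synthase and NDH groups are filled and below 0, and the open bars are all in transcription and translation (psbJ and atpB do not pass under some other scalings).

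Nuclear genes of the thylakoid fell with them. Of 21 measured genes for photosystem, antenna and other thylakoid proteins 19 fell and 2 rose, with a median log2 change of −1.09. Of all probe sets 32.1% fell and 43.9% rose. NdhN (AT5G58260) and NdhL (AT1G70760), subunits of the NDH complex encoded in the nucleus, had the largest falls. NdhN gave 1327, 1331 and 1417 at 2 d and 212, 190.4 and 223 at 8 d, and NdhL gave 1844, 1749 and 1547 at 2 d and 294, 337 and 344 at 8 d. Both were at 2 d near their 0 d means of 1395 and 2030.1. They were followed by LIL3:1 (−1.64), a relative of antenna proteins that holds enzymes of chlorophyll synthesis at the membrane, TROL (−1.60), which binds ferredoxin reductase, PSB27 (−1.59), known from the repair of photosystem II, and NdhS (−1.53), the ferredoxin-binding subunit of the NDH complex. The 2 rises were those of TAAC (AT5G01500), a carrier of adenine nucleotides (622, 457 and 531 at 2 d and 793, 954 and 837 at 8 d), and of ATPC2 (0.35), a minor form of the ATP synthase gamma subunit, which did not pass with array medians set equal, after quantile normalization, or without 2 d replicate 3 or 8 d replicates 1 or 2. The major form ATPC1 fell (−0.89).

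Proteins that assemble these complexes or handle plastid RNA were measured by 27 genes. Of these, 23 fell, 1 rose and 3 did not pass (median −1.02), beside 32.1% of all probe sets that fell. HCF101 (AT3G24430), an iron-sulphur carrier needed for photosystem I, gave 1533, 1293 and 1575 at 2 d and 329, 339.7 and 402 at 8 d. The next falls were those of CRR42 (−1.87), an assembly factor of the NDH complex, the chaperonin gene Cpn60beta4 (−1.70), PAM68 (−1.50), known from photosystem II assembly, the peptide deformylase gene PDF1B (−1.48) and the translation initiation factor gene FUG1 (−1.48). The chaperonin genes did not move together. Cpn60beta2 also fell (−1.04), while Cpn60beta3 (AT5G56500) was the 1 rise, at 897, 1014 and 814 and then 1728, 1589 and 1608 (log2 change 0.85); these 2 were picked with their values in view.

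All 9 measured genes of chlorophyll and heme synthesis fell, with a median of −1.06 (32.1% of all probe sets fell). CHLM (AT4G25080), the methyltransferase that acts after magnesium is inserted, was among the bright genes at 2 d, with 4912, 5483 and 5749.8, and gave 1329, 1697 and 1326 at 8 d. CHLI2, a subunit of the magnesium chelatase, fell by 1.70 on the log2 scale, the uroporphyrinogen decarboxylase genes HEME2 and HEME1 by 1.51 and 1.34, the light-dependent reductase gene PORB by 1.06 and HEMB1, which acts early in the pathway, by 0.91. Under the scaling on hybridization controls 8 of the 9 fell. Both measured genes of carotenoid synthesis, LYC and Z-ISO, fell (−0.95 and −0.83).

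Of 5 genes of carbon fixation and photorespiration 5 fell (32.1% of all probe sets did). LrgB (AT1G32080), a transporter of glycolate and glycerate in the chloroplast envelope, changed most, from 2540.3, 2423 and 2902 at 2 d to 396, 426 and 559.9 at 8 d (log2 change −2.48 ± 0.12, SE). The Calvin cycle gene SBPASE (AT3G55800), for sedoheptulose bisphosphatase, was even on the arrays, at 6318, 6619 and 6417 and then 2027, 1856 and 1966. The hydroxypyruvate reductase gene HPR (−1.56) and the phosphoribulokinase gene PRK (−1.51) fell by a like amount. RCA, the activase of Rubisco, changed less (−0.51).

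Redox enzymes did not all follow. Of 15 measured genes, 9 fell, 2 rose and 4 did not pass, and with array medians set equal or after quantile normalization 11 fell. Of all probe sets 32.1% fell and 43.9% rose. TAPX (AT1G77490), the ascorbate peroxidase of the thylakoid membrane, gave 1610.0, 1523 and 1607 at 2 d and 364, 342 and 368 at 8 d, while the value for its stromal relative SAPX was 0.05, which did not pass. Among thioredoxins and their reductase, TRXF2 (−1.90), ty2 (−1.50), NTRC (−1.41) and THX (−1.35) fell. TY1 (AT1G76760), the close relative of ty2, rose, from 198, 212 and 256 to 426, 486 and 378. A further pair of relatives were the methionine sulfoxide reductase genes MSRB6 (AT4G04840) and MSRB5 (AT4G04830), whose products repair oxidised methionine. MSRB6 gave 403, 353 and 481 at 2 d and 58, 84.7 and 53.1 at 8 d, and MSRB5 gave 886, 1108 and 761 and 2498, 1725 and 1921. Both had been brighter at 0 d, with means of 1605 and 2691. SAPX, TY1 and MSRB5 were named after their values were seen.

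Transcripts encoded in mitochondria rose in 6 of 6 measured genes, under each of the scalings, with a median log2 change of 0.96 (43.9% of all probe sets rose). Most of them were dim at 2 d, ccb382 not among these. The gene cox1, for a subunit of cytochrome oxidase, gave 123, 152 and 132 at 2 d and 336, 270.1 and 308 at 8 d, against a mean of 181 at 0 d. The gene nad1, for a subunit of complex I, gave 68.8, 71.9 and 35.8 and 145, 183 and 191, with the last of the 2 d arrays below the others. The largest change was that of ccb452, for a protein of cytochrome c maturation, at 128, 114 and 111 and then 620.1, 525 and 501; its probe set is of a kind shared by several transcripts. The others were nad9 (0.85), nad4 (0.65) and ccb382 (0.60). Without the dimmest 25% of probe sets only 2 of the 6, ccb382 and nad4, were tested, and both rose. The poly(A) controls, which are added to RNA before it is labelled, were lower at 8 d (log2 difference −0.251, 5 probe sets), and the 1 probe set for 25S ribosomal RNA was higher (log2 difference 0.185). The part of both in this result was not tested.

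Nuclear genes of respiration showed no common direction. Of 11 measured, 3 rose, 4 fell and 4 did not pass, beside 43.9% of all probe sets that rose and 32.1% that fell. The median was −0.10 and turned to 0.03 after quantile normalization and to 0.05 under the scaling on hybridization controls. The rises were those of the electron transfer flavoprotein genes ETFALPHA (0.75) and ETFBETA (0.32) and of CCMH (0.45), for cytochrome maturation. The falls were those of the complex I gene FRO1 (−0.55), the cytochrome c genes CYTC-2 (−0.36) and CYTC-1 (−0.21, and 0.00969 after quantile normalization) and SDH2-1 (−0.26), a subunit of succinate dehydrogenase. Under the scaling on hybridization controls 1 of these 4 falls passed, and the calls of CYTC-1, CYTC-2 and SDH2-1 each ended without 8 d replicate 2 and without some other single arrays (limma adjusted p up to 0.113, 0.141 and 0.104).

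Several lists of genes that act in the nucleus held rises and no falls. In splicing and messenger RNA decay 14 of 18 rose and 0 fell (median 0.41), in chromatin remodelling 10 of 12 and 0 (median 0.44), in RNA polymerase subunits 8 of 12 and 0 (median 0.46), and in DNA replication and repair 11 of 17 probe sets and 0 (median 0.52). At an unadjusted p under 0.05, 0 members of these 4 lists fell as well. With 76.0% of all probe sets called, that bound lies close to the adjusted one and is no separate check. The share of all probe sets that rose was 43.9%, the changes were mostly under 2-fold, and the median of all probe sets was itself above 0. With array medians set equal the rises numbered 11, 9, 7 and 10. With the dimmest probe sets left out, 14 of 17, 7 of 7, 6 of 8 and 3 of 5 rose, in the same order, and 0 fell. Most of the DNA list was thus dim and not tested under that filter. The largest change in these 4 lists was in a chromatin gene. BSH (AT3G17590), the SNF5-type subunit of the SWI/SNF complexes, gave 421, 419 and 464 at 2 d and 1277, 1389 and 1584 at 8 d, with a mean of 259.9 at 0 d, so the treated groups were well apart. CHC1, of the same complexes, rose by 0.95, and the ISWI gene CHR17 by 0.66, followed by INO80 (0.48) and ATRX (0.45). DDL (0.48), which is not a chromatin remodeller, was counted among the 10 rises of this list.

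Among RNA genes U2AF35B (AT5G42820), the small subunit of the factor that finds the 3' splice site, gave 660.1, 661 and 559 at 2 d and 1295, 1339 and 1357 at 8 d. Its relative ATU2AF35A (0.71), the spliceosome-linked MAC3B (0.94), and LSM3A (0.93), LSM1A (0.74) and TGH (0.65) also rose. Among polymerase genes the largest rises were those of NRPD7 (0.86), of the RNA polymerase I subunits NRPA1 (0.67) and NRPA2 (0.60), and of NRPB12 (0.57), NRPB6A (0.55) and NRPC1 (0.52). In ribosome biogenesis 4 of 7 rose and 1 fell (43.9% and 32.1% of all probe sets). PRH75 (AT5G62190), a nucleolar RNA helicase, was bright and gave 2260.1, 1928 and 2323 at 2 d and 5465, 6204 and 6233 at 8 d, against 1111 at 0 d. RRP41L (1.20), the rRNA methyltransferase gene DIM1A (1.09) and IMP4 (0.63) were the other rises. The fall was that of RH39 (−0.53), a helicase that acts on ribosomal RNA of the chloroplast.

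Among genes for DNA, the rises were led by UNG (0.77), which removes uracil, the repair genes RAD4 (0.70) and EME1A (0.65), PSF2 (0.60), of the replication helicase, ASF1B (0.57), a histone chaperone, and DME, a DNA glycosylase that removes methylated cytosine. DME had 3 probe sets, with changes of 0.54 and 0.57 and another of 0.23 that did not pass. Genes of mitosis and cytokinesis split instead. Of 20, 6 rose, 5 fell and 9 did not pass, beside 43.9% of all probe sets that rose and 32.1% that fell. The median of the 20 was −0.02. It was 0.12 under the scaling on hybridization controls (8 rises and 4 falls). With array medians set equal it was −0.09 (5 and 7), and after quantile normalization −0.08 (5 and 6). Within the Aurora kinases, which act on mitotic chromosomes, AUR3 (AT2G45490) rose from 125, 191 and 199 to 273, 312 and 239 and AUR2 (AT2G25880) fell from 661, 774 and 795 to 467, 417 and 438, and AUR1 fell (−0.47). KINESIN-12B, of the cell plate machinery, fell (−0.60), while CKS, a partner of cyclin-dependent kinases, and TON1B, which positions the division plane, rose (0.54 and 0.53). Of the 4 nucleosome histone genes 1 rose and 2 fell. The rise, that of HTB4 (0.29), did not pass with array medians set equal or without 2 d replicate 2 or 8 d replicate 3, and 2 rose with the hybridization controls set equal.

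**Figure D4:**
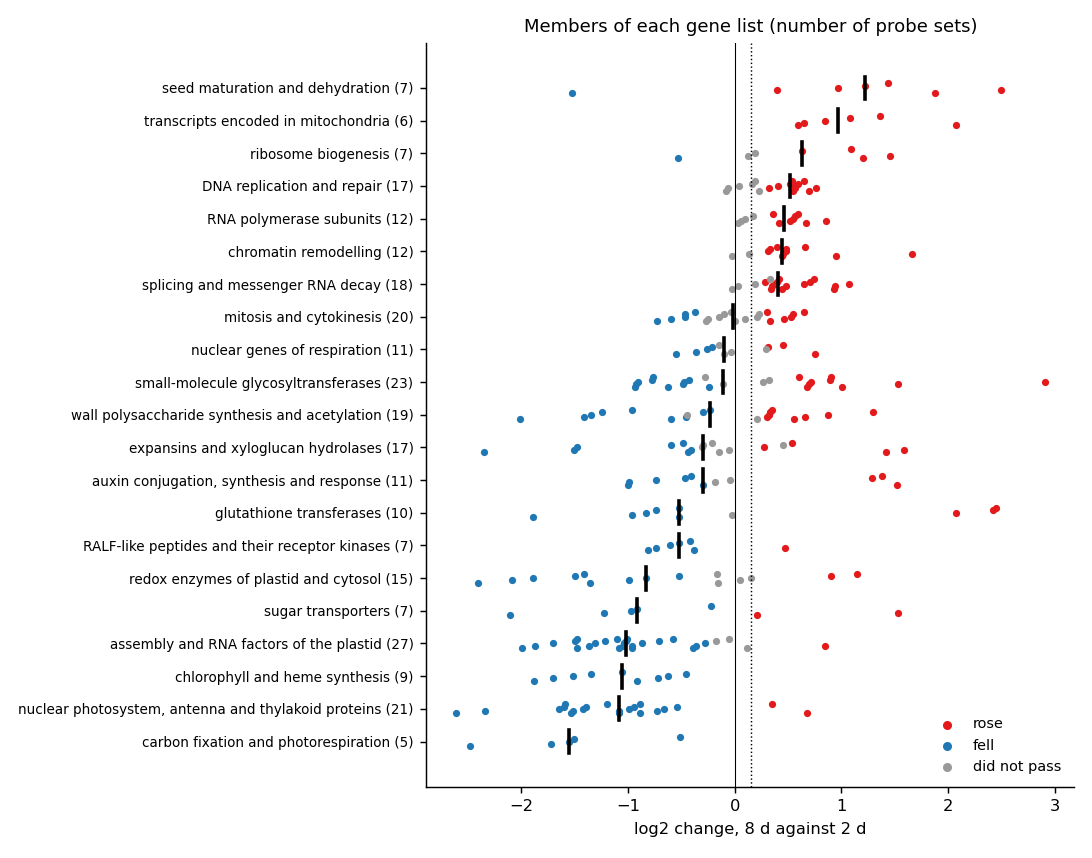
Log2 change of 8 d against 2 d of each member of 21 gene lists, ordered by the list median (black bar). The dotted line is the median of all probe sets, 0.15, and red, blue and grey points rose, fell and did not pass. The lists of carbon fixation, nuclear thylakoid proteins, chlorophyll synthesis and plastid assembly factors lie at the bottom, with medians of −1.55 to −1.02, and the lists of RNA, chromatin and DNA genes lie above the dotted line, with most values under 1.

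Auxin genes also split. Of all probe sets 43.9% rose and 32.1% fell. Of 11 auxin genes measured, 3 rose, 6 fell and 2 did not pass, and with hybridization controls set equal 3 rose and 4 fell. Of the rises, 2 were in genes for enzymes that attach auxin to other molecules. GH3.17 (AT1G28130), which conjugates auxin to amino acids, gave 999, 1159.7 and 1159 at 2 d and 3318, 3257 and 3051 at 8 d, and IAGLU (AT4G15550), which conjugates it to glucose, gave 765, 739.9 and 818 and 2012, 1866 and 1859. The remaining rise was that of the Aux/IAA repressor gene IAA30 (AT3G62100), which was at a mean of 60.4 at 0 d, and at 473, 449 and 385 at 2 d and 1391, 954 and 1165 at 8 d. Other genes of the Aux/IAA family fell, IAA18 (−1.004) and IAA29 (−0.74). The GH3 genes GH3.9 (−0.47) and WES1 (−0.41), picked with their values in view, fell as well, though neither passed after quantile normalization and GH3.9 did not with the hybridization controls set equal or without 2 d replicates 1 or 3 or 8 d replicates 1 or 3 (limma adjusted p up to 0.124). LBD16 (AT2G42430), a transcription factor known from lateral root formation, fell from 597, 626 and 565 to 264, 279 and 333 and stayed above its 0 d mean of 144.

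Of 44 transcription factor genes 20 rose, 17 fell and 7 did not pass, shares near those of all probe sets on the rising side (43.9%). With array medians set equal 17 rose and 17 fell, and with hybridization controls set equal 23 rose and 13 fell. With the dimmest probe sets left out only 27 of the 44 were tested, of which 16 rose and 7 fell. The median of these 27 was 0.28, against 0.16 for all 44. EEL (AT2G41070), a bZIP factor of seed maturation, had the largest rise, from 259, 271 and 258 at 2 d to 1637, 1508 and 1537 at 8 d, with a mean of 76.3 at 0 d, so its signal was tight within each time. SPT (AT4G36930), a basic helix-loop-helix factor of carpel and seedling growth, gave 265, 294 and 292 at 2 d and 1385, 1251 and 1229 at 8 d, and its 2 d mean was close to that of 0 d (316). PHV (AT1G30490), a class III homeodomain factor that marks the upper side of leaves, gave 636, 668 and 574 and 1850.3, 1303 and 1534. LHW, known from root vascular growth, and NAI1, known from ER bodies, rose by 1.102 and 1.04. The largest falls were those of the MADS gene AGL87 (−1.62), of YAB3 (AT4G00180), a YABBY factor that marks the lower side of leaves (321, 385 and 377 at 2 d and 101, 115 and 132 at 8 d), of the trihelix gene GT2 (−1.44), of BZIP61 (−1.43) and of SMZ (−1.18), a repressor of flowering. In the wider list of patterning regulators 8 of 12 rose and 2, YAB3 and YAB5 (−0.90), fell (43.9% and 32.1% of all probe sets). AGO7 (0.77), of the small RNA pathway that shapes leaf polarity, and the phosphatase gene POL (0.69) and LEP (0.63) were among its rises.

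Enzymes that act on foreign and small molecules included some of the larger changes, and their counts are to be read beside the 43.9% of all probe sets that rose and the 32.1% that fell. Of 10 glutathione transferase genes, whose products attach glutathione to reactive compounds, 3 rose and 6 fell. ATGSTF13 (AT3G62760) gave 43.7, 40.4 and 46.6 at 2 d and 347, 299.6 and 282 at 8 d, GSTU26 (AT1G17190) gave 310.4, 287 and 306 and 2223, 1469 and 1456, and GSTU25 (AT1G17180) gave 721, 708 and 840.3 and 3316, 2849 and 3547. The first was near the bottom of the signal range at 2 d, where its height above background is unknown. Each had a higher mean at 0 d than at 2 d, of 117, 738 and 816. GSTU18 (AT1G10360) went the other way, from 875, 939.7 and 923 to 247, 229.7 and 228, followed by GSTF4 (−0.96) and GSTL3 (−0.83).

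Of 23 glycosyltransferase genes for small molecules 9 rose, 10 fell and 4 did not pass, near the shares of all probe sets, with a median of −0.11 that turned to 0.03 under the scaling on hybridization controls. UGT73B4 (AT2G15490) rose from 182, 208 and 215 to 1751, 1496 and 1613, a log2 change of 2.91 ± 0.12 (SE, limma adjusted p = 9.84e-09), or 7.52-fold. Its neighbour UGT73B5 (AT2G15480) was dimmer and less even, at 101, 54.6 and 127 and then 224, 167 and 203, and UGT73B1, of the same subfamily, had a value of −0.28 that did not pass. UGT85A2 (AT1G22360) rose from 514, 375 and 504 to 1421, 1429 and 1238. UGT72B3 (−0.94), UGT88A1 (−0.93) and UGT72E1 (0.91) followed in size. The flavonoid genes CHIL (−1.39), UGT78D1 (−0.77) and UGT78D2 (−0.48) all fell. Of 8 cytochrome P450 genes of the CYP71B family 5 fell and 1 rose, led by CYP71B29 (−1.06). The rise, of CYP71B6 (0.27), did not pass with array medians set equal or without 2 d replicate 2. With the dimmest probe sets left out only 3 of the 8 were tested, of which 1 rose and 1 fell. The median of these 3 was 0.12, against −0.53 for all 8. The reductase genes AOR (−1.51) and AER (−0.81), which reduce reactive carbonyls, fell.

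**Figure D5:**
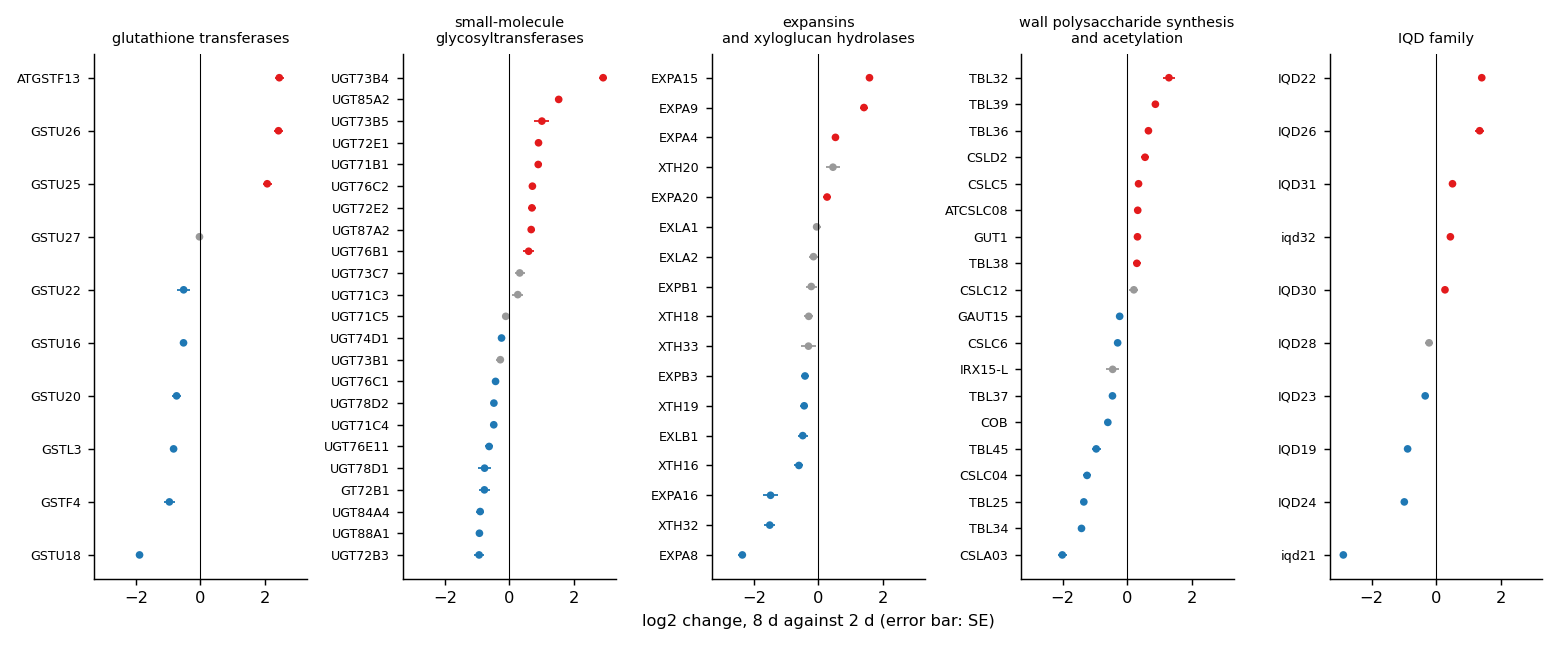
Log2 change of 8 d against 2 d, with its SE, of each measured member of 5 gene families. Red points rose, blue points fell and grey points did not pass. Every family holds members on both sides of 0, from 2.45 to −1.89 in glutathione transferases and from 1.42 to −2.88 in the IQD family.

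Genes of the cell wall had rises and falls, as all probe sets did (43.9% and 32.1%). Of 17 expansins and xyloglucan hydrolases (enzymes and proteins of wall loosening), 4 rose, 7 fell and 6 did not pass, with 3 rises and 8 falls with array medians set equal and 5 and 5 with hybridization controls set equal. EXPA8 (AT2G40610) had the largest change, a fall from 1102, 1213 and 1156 at 2 d to 173, 254 and 219 at 8 d. EXPA15 (AT2G03090) rose from 424, 493 and 508 to 1437, 1389 and 1552, and EXPA9 (AT5G02260) from 743, 647 and 871 to 1845, 2165 and 2084. XTH32 (−1.50), EXPA16 (−1.48) and XTH16 (−0.60) fell. Of 19 genes that make or acetylate wall polysaccharides 8 rose and 9 fell. The glucomannan synthase gene CSLA03 (AT1G23480) fell from 453, 419.7 and 507 to 87.8, 124 and 95.7, and the acetylation-linked genes TBL34 (−1.42) and TBL25 (−1.34) and the xyloglucan synthase gene CSLC04 (−1.24) fell too. TBL32 (1.30, by a probe set shared by several transcripts) rose, and TBL45 (−0.96) fell.

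Among the 5 endoglucanases of family GH9, 1 rose and 3 fell (43.9% and 32.1% of all probe sets). The rise was that of GH9B13 (AT4G02290), at 1211, 1353 and 1536 at 2 d and 3782, 3693 and 3554 at 8 d, with a mean of 253 at 0 d. GH9B8 (−0.80), GH9B7 (−0.49) and GH9C2 (−0.25) fell, the last of which did not pass after quantile normalization, with the hybridization controls set equal or without 2 d replicates 1 or 3 or 8 d replicate 2. RALF peptides are secreted signals that the receptor kinase FER perceives at the wall. Of the 7 measured peptide and receptor genes 6 fell, RALFL33 (−0.81), RALFL34 (−0.74), RALFL32 (−0.61), RALFL22 (−0.52), THE1 (−0.42) and FER (−0.38), and THE1 did not pass with the hybridization controls set equal, while RALFL31 rose (0.47).

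Of 7 sugar transporter genes 5 fell and 2 rose (32.1% and 43.9% of all probe sets). One rise, that of TMT1 (0.20), a sugar carrier of the vacuole membrane, did not pass with array medians set equal, after quantile normalization or when any single array other than 2 d replicate 2 was left out (limma adjusted p up to 0.112). SWEET2 (AT3G14770), a sugar carrier of the vacuole membrane, fell from 979, 1052 and 1289 to 219, 252 and 259, and SWEET1 (AT1G21460), a glucose carrier, rose from 558, 462 and 606 to 1761, 1607 and 1409. The groups were well apart in both. SFP2 (−1.22), SAG29 (−0.97) and SFP1 (−0.92) fell, and SWEET11 (−0.22) passed as a fall, but not when any single array other than 8 d replicate 3 was left out, after quantile normalization or with the hybridization controls set equal. The starch synthesis gene APL4 (1.24) and the starch breakdown gene DPE1 (0.91) rose, and the fructose bisphosphate regulator gene F2KP (−0.82) and the sucrose synthesis gene ATSPS4F (−0.65) fell. Nitrate and peptide transporters of the NRT1/PTR family, found under locus codes, gave 3 falls, AT1G68570 (−1.48), AT3G21670 (−1.01) and AT2G26690 (−0.55), and 1 rise, AT1G59740 (1.11).

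Of 7 genes of seed maturation and dehydration 6 rose and 1 fell, under each of the scalings (43.9% and 32.1% of all probe sets). Beside EEL they were DI21 (AT4G15910), a gene of drought response, which was bright at 1753, 2366 and 1646 at 2 d and 6557, 7155 and 7408 at 8 d, and the dehydrin gene COR47 (AT1G20440), at 3928, 4660.1 and 3258 and then 8471, 9492 and 9571. The oleosin gene OLEO3 (AT5G51210), for a coat protein of seed oil bodies, stayed dim, at 32.1, 49.4 and 35.5 and then 124, 146 and 126. HVA22C (0.96) and XERICO (0.39) also rose. The fall was that of another dehydrin gene, LTI30 (AT3G50970), from 1108, 1007 and 1163 to 369.6, 287 and 467. Further dehydrin and LEA genes appeared under locus codes, AT1G54410 (0.40), named HIRD11 in the RefSeq synonyms, which rose, and AT2G46140 (−0.92), which fell.

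Autophagy and proteolysis genes differed by member. Of 9 autophagy genes 5 rose and 2 fell, and within the ATG8 family, whose products coat the forming autophagosome, ATG8B (AT4G04620) rose from 404, 507 and 367 to 982, 953 and 919.8 and ATG8H (AT3G06420) fell from 408, 354 and 429.6 to 233, 198 and 188. ATG8G (0.62) and ATG8D (0.47) rose and ATG8E (−0.71) fell. Among vacuolar processing enzymes, ALPHA-VPE (AT2G25940) fell from 312, 319 and 399 to 111, 75.9 and 124 and BETA-VPE fell (−0.50), while GAMMA-VPE (0.24) passed as a rise, but not with array medians set equal or when any 1 of the 6 arrays was left out. Of 16 subtilases and serine carboxypeptidases 5 rose and 7 fell (6 and 4 with the hybridization controls set equal, and 43.9% and 32.1% of all probe sets), from scpl35 (1.55) and SCPL45 (1.01) to SBTI1.1 (−1.31) and scpl25 (−1.39).

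Of 15 genes of ER bodies and beta-glucosidases 7 rose, 4 fell and 4 did not pass, close to the 43.9% and 32.1% of all probe sets. ER bodies are stores of beta-glucosidase that roots and seedlings of this plant carry. Beside NAI1 the rises included BGLU45 (1.07) and BGLU25 (0.92), and the falls BGLU40 (−1.65), BGLU33 (−1.42) and BGLU46 (−0.84). The main enzyme of root ER bodies, PYK10, had a value of −0.08 that did not pass.

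Genes of stomata and trichomes were measured by 5 members, of which 4 fell and 1 rose (32.1% and 43.9% of all probe sets). STOMAGEN (AT4G12970), a peptide made in leaf mesophyll that promotes stomata, fell from 182, 201 and 211 to 27.1, 46.1 and 48.8, after a mean of 571 at 0 d. FMA (AT3G24140), which completes guard cell fate, gave 114, 164 and 111 at 2 d and 65.2, 109.8 and 54.8 at 8 d, so both groups were close at their edges. SIM (AT5G04470), known from trichome cells, fell from 659, 674 and 719.8 to 327, 253 and 253, and ATMYC1 (−0.80) fell while GEM (0.36) rose. Of the vascular peptide genes CLE41 (−0.65) fell and CLE44 (0.29) passed as a rise, but not with array medians set equal, after quantile normalization or when any single array other than 2 d replicate 2 was left out, and the receptor-like kinase gene MOL1 rose (0.97).

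The marker lists of tissues were thinly covered in this table, and a change of tissue makeup could not be separated from a change within cells. Of 15 root markers 2 were measured, NAI2 and PYK10. Their summed signal was 13315 to 14281 on the 2 d arrays and 13539 to 14710.1 on the 8 d arrays. The sum rests mostly on the brighter of the 2 (2 d means of 11028 and 2642). NAI2 rose (log2 change 0.53), while PYK10 did not pass (−0.08). Of 10 stomatal markers 2 were measured, with a summed signal between 295 and 365 on the 2 d arrays and between 92.4 and 156 on the 8 d arrays. The 1 mesophyll marker measured of 4, RCA, gave a signal of 14739.8 to 15060.5 on the 2 d arrays and of 9408 to 11672 on the 8 d arrays. The 1 trichome marker of 7, SIM, gave 659 to 719.8 and 253 to 327, and the 1 seed marker of 10, OLEO3, gave 32.1 to 49.4 and 124 to 146. The 3 phloem markers measured of 7 gave a summed signal of 2947 to 3154 and 2527 to 2824. Of these, SWEET11 (−0.22) and CLE41 (−0.65) fell and CLE44 rose (0.29). The calls of SWEET11 and CLE44 were lost under settings given above. None of the 8 xylem markers and none of the 8 meristem markers was among the probe sets that could be named. No measured marker was at 0 on any array. The part of tissue makeup in the gene lists above was not tested.

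Small families of other kinds also had members on both sides, as 43.9% and 32.1% of all probe sets did. In the IQD family, calmodulin-binding proteins that sit on microtubules, 5 of 10 rose and 4 fell, with a median of 0.03. The median turned to −0.05 with array medians set equal and to −0.04 after quantile normalization, and was 0.17 with hybridization controls set equal. With the dimmest probe sets left out only 5 of the 10 were tested, of which 4 rose and 0 fell (median 0.44). iqd21 (AT3G49260) fell from 401, 386 and 382 to 30.6, 47.6 and 40.8, and IQD22 (AT4G23060) and IQD26 (AT3G16490) rose to means of 975 and 678 from 355 and 253. IQD24 (−0.99) and IQD19 (−0.88) fell and IQD31 (0.51) rose. Among tetraspanins, membrane proteins of cell surfaces, TET2 (1.01) and TET3 (0.54) rose and TET5 (−1.24) and TET8 (−0.51) fell, the last not with the hybridization controls set equal. Among aldehyde dehydrogenases ALDH10A8 (0.81), ALDH22A1 (0.53), ALDH10A9 (0.44) and ALDH7B4 (0.42) rose and ALDH11A3 (−1.33) and ALDH3F1 (−1.04) fell. The beta tubulin genes TUB1 (−0.76) and TUB5 (−0.49) fell.

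Some locus codes carried a protein name only among the RefSeq synonyms. AT5G64120, named there as peroxidase 71, fell from 3617, 3231 and 4829 at 2 d to 1156, 872 and 1037 at 8 d. AT5G58330, the chloroplast malate dehydrogenase that uses NADP, fell by 1.46 on the log2 scale, and AT5G61590, the factor DEWAX that represses wax synthesis, by 0.71. AT5G52050, the transporter DTX50, rose by 0.79, and AT1G13030, coilin, which organises nuclear Cajal bodies, by 0.76. Of 19 further genes with a symbol, which were picked with their values in view, the largest rise was that of CXE20 (AT5G62180), a carboxylesterase, from 166, 179.6 and 177 to 705, 774 and 628, and the largest fall that of ATC (−1.88), a relative of TERMINAL FLOWER 1 that delays flowering. The cytosolic endoglycosidase genes ENGase85A and ENGase85B both rose (1.40 and 1.37), as did the fucose synthesis gene GER2 (1.60) and the methionine gamma-lyase gene MGL (1.13).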

How the data were processed

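Transcripts of whole seedlings were measured on Affymetrix arrays, and the authors deposited 1 table of probe set intensity for 9 arrays, made with MAS5 per the submitters' processing notes. The intensity values were positive and linear, and the sources used here do not give the scaling step, no detection call was used, which leaves the height above background unknown, and precision is limited by how many arrays there are. The labels name both Cy3 and biotin, and which was read is not stated in them. Gene names came from the platform annotation and were updated from RefSeq by identifier for 5962 of the 5981 probe sets of 1 gene, while 19 kept the platform's symbol. No sequence was used here.

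Values were tested as log2(signal + 16), on which scale all fold changes stand, so changes of dim probe sets are understated. The 21 controls were left out. In R 4.3.3, limma 3.58.1 fitted the mean of each group across all 9 arrays (6 residual and 5.24 prior degrees of freedom). The contrast of 8 d with 2 d was tested two-sided, with Benjamini-Hochberg adjustment over 11228 probe sets and a threshold of 0.05. On simulated data with 11228 probe sets, 100 of 100 changes of 2-fold and 86 of 100 of 1.5-fold were recovered, with 6 false calls among 11028. The simulation drew independent normal noise, left all other probe sets unchanged and applied no selection. Its false calls therefore do not give the error level of the calls made here. Lists were described by counts and medians, with no test of a list. Python 3.11.15 (with matplotlib 3.10.9, NumPy 2.4.6 and pandas 2.3.3) made tables and plots.

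The comparison, the 50 gene lists and the 8 marker lists were chosen with earlier results of these data known, and the gene lists hold only genes measured here. Named genes were the 15 largest rises and falls that passed, did not overlap between groups, belonged to 1 gene by a probe set not shared by several transcripts and were above the median signal in the higher group, up to 6 passing members of each list by size, and the 5 largest rises and falls of transcription factors. Other genes named, including any that did not pass, were picked with their values in view. The 15 alternatives were other offsets (1 and 64), scaling on array medians, quantiles or hybridization controls, a filter on dim probe sets, the 6 treated arrays alone, a variance trend, the replicate number as a block and leaving out each array.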

Additional observations from a re-analysis of the deposited data

How the results depend on the processing

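The counts of probe sets that rose, fell or changed at least 2-fold stayed within 1.5 times of the reported ones under the 15 alternatives, except that 471 in place of 734 rose at least 2-fold without the dimmest 25% of probe sets, where fewer were tested. Without 1 of the 6 treated arrays, 7919 to 8141 probe sets changed, 4511 to 4660 rose, 3408 to 3486 fell, 712 to 762 rose at least 2-fold and 1224 to 1305 fell at least 2-fold. In the fit of the 6 treated arrays alone 4976 rose and 3609 fell. The replicate number as a block gave 4901 rises and 3606 falls; arrays of the same number deviated together only weakly (r = 0.078, 0.061 and 0.106), so the numbers were not taken as pairs. Rises made up 57.7% of the changed probe sets, 51.9% with array medians set equal (4215 rises and 3909 falls) and 66.3% with hybridization controls set equal (5841 and 2973). Of the named genes CYTC-1 changed sign, to 0.00969 after quantile normalization; the cause was not tested. Of 549 genes of the lists and the largest changes, 32 lost and 22 gained a call with hybridization controls set equal, 24 and 14 with array medians set equal, and 18 to 29 lost theirs without 1 array. With signal over background unknown, the size of a change is uncertain where one group was near the bottom of the range (AT4G33560, ATGSTF13), and a change of a gene dim in both groups, such as rpoB, could not be judged.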
